A study of Mus musculus with 4 samples.

Results

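The genes that encode the proteins of the cytosolic ribosome were examined in hippocampal RNA of mice with a heterozygous Rp58 knockout (hetero-KO) and of wild-type (WT) mice. Rp58 is the transcriptional repressor now named Zbtb18. Members were the genes whose array name starts with Rpl, Rplp or Rps and a number, or is Rpsa, without names that hold "-ps" and without the Rps6k kinases. The rule took 87 of 37311 genes, 53 of the large and 34 of the small subunit. Of these, 77 carry the name of a standard ribosomal protein, 9 are paralogs or copies such as Rpl22l1, and 1, Rps19bp1, is named as a binding protein of Rps19 and is no ribosomal subunit. The groups were hetero-KO at 18 months, WT at 18 months, hetero-KO at 4 months and WT at 4 months, with 1 array each. Each array held RNA mixed from 3 samples of a group, of which 200 ng was labelled with the dye Cy3. The older mice are labelled 18 months and titled 1.5 years, while their descriptions give 12 to 18 months, and the labels give no sex. No group has a replicate array, so a difference between a pair of arrays is a value with no test, and only an additive model of genotype and age over all 4 arrays gives p-values.

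A ribosome is built of a small subunit, which reads the messenger RNA, and a large subunit, which joins the amino acids, and each subunit holds its proteins in fixed proportions on a core of ribosomal RNA. Messenger RNAs of ribosomal proteins are among the most abundant of a cell. Most of them start with a C followed by a run of pyrimidines, the 5′ terminal oligopyrimidine (TOP) motif, through which mTORC1 controls their translation. In neurons they are also found in dendrites and axons.

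Levels are given as the spot signal divided by the 75th percentile of the array, so that a level of 1 equals that percentile. The percentile was 1714 and 1734 signal units in hetero-KO and WT at 18 months, and 2111 and 1975 units in hetero-KO and WT at 4 months, and 77.9% to 81.9% of spots were well above background. Zbtb18 had a level of 21.4 in hetero-KO and 18.9 in WT at 18 months, and of 15.2 in hetero-KO and 17.5 in WT at 4 months, and since neither the design of the knockout allele nor the missing part of the gene is stated, this probe does not check the labels. The female-specific transcript Xist was not well above background at 18 months (0.00370 and 0.00575) and had levels of 0.231 in hetero-KO and 0.164 in WT at 4 months. The Y-linked gene Ddx3y had levels of 0.226 and 0.242 in hetero-KO and WT at 18 months, and at 4 months it was at background in hetero-KO (0.00150) and had 0.106 in WT, so these sex-linked transcripts differed with age and, at 4 months, with genotype. Markers of thalamus and habenula had a summed level of 11.05 and 14.5 in hetero-KO and WT at 18 months, against 29.6 and 38.5 at 4 months, and 8 of 10 fell with age. Markers of microglia had 105 and 93.3 at 18 months, against 76.4 and 78.7 at 4 months, and 10 of 12 rose. These calls are at a limma adjusted p under 0.05, which 0.65% of all genes met as lower and 1.47% as higher. Striatum markers had 31.3 and 29.1 at 18 months, against 61.1 in hetero-KO and 28.2 in WT at 4 months. Singly, 10 of 10 were lower at 18 months in hetero-KO and 8 of 10 in WT, with medians of −1.46 and −0.32 log2. Hippocampal principal neuron markers had 48.5 and 47.1 at 18 months, against 39.8 and 40.6 at 4 months. No marker of these lists was at 0, and the part of sex, tissue makeup or scaling in the results below was not tested. The authors' deposited table matched the scanner files at 4 months, where 100% of spots were a constant multiple within 1%, but its 18-month columns matched none of the 4 files (2.61% to 3.95% of spots, correlation of log2 values 0.981 to 0.985). Results rest on the scanner files, and medians and sign counts from the authors' deposited table stand beside the main age results.

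On the scanner files, the ribosomal protein genes were higher at 18 than at 4 months, by a median of 0.21 log2 in hetero-KO and 0.24 log2 in WT (1.16-fold and 1.18-fold, 85 genes measured on all 4 arrays), but the medians were 0.0066 and 0.067 log2 after quantile normalization and −0.055 and −0.064 log2 in the authors' deposited table. The gene was higher at 18 months for 83 of 85 in hetero-KO and 84 of 85 in WT, against 59.3% and 58.3% of the 27370 genes measured on all arrays. The gene was lower at 18 months for 2 in hetero-KO (Rpl3l and Rpl37) and 1 in WT (Rpl3l), against 40.7% and 41.7% of all genes. In both genotypes 83 of 85 were higher, against 43.4%. In 82 of 85, both 18-month arrays were above both 4-month arrays, which 32.4% of all genes did. These sign counts depended on the scaling. In hetero-KO 48 of 85 were higher after quantile normalization, 63 after cyclic loess, an alternative chosen after seeing the data, and 19 in the authors' deposited table, and in WT 70, 75 and 18. The members held 11.2% and 11.7% of the summed signal of hetero-KO and WT at 18 months, against 11.1% and 11.2% at 4 months. Past 1.2-fold, 26 members were higher and none lower in hetero-KO, against 14.8% and 10.1% of all genes, and 31 were higher and 1 lower in WT, against 11.1% and 10.1%. None of the 85 members measured on all 4 arrays differed 2-fold with age, where 2.1% of all genes in hetero-KO and 1.34% in WT did. Over both genotypes, 26 of 86 members tested rose and none fell (limma with Benjamini-Hochberg adjustment over 29076 genes), where 1.47% of all genes were called higher and 0.65% lower. With p under 0.05 before adjustment, 77 members were higher and 1, Rpl39l, was lower, against 16.8% and 6.92% of all genes. No member was called under quantile normalization, where the lowest adjusted p was 0.082, and 2 were called higher and 23 lower from the authors' deposited table. In bulk tissue, a change in the cells that make up the sample and a change in RNA per cell cannot be told apart.

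Of the large subunit, 12 of 52 genes tested rose, by 0.27 to 0.36 log2, and none of the others passed (limma, adjusted p from 0.039 to 0.050 for the 12). The probe used has 10 spots per array in 2 of the 12 and a single spot in the rest, Rplp1, Rplp2, Rpl3, Rpl10 and Rpl11 included. The median over the 51 genes measured on all arrays was 0.21 log2 in hetero-KO and 0.23 in WT, and after quantile normalization 0.0066 and 0.067. In the authors' deposited table the medians of the large subunit were −0.041 and −0.048 log2, and Rplp1, Rplp2, Rpl3, Rpl10 and Rpl11 had the opposite sign. The stalk proteins, which draw elongation factors to the ribosome, are described first. Rplp2 had levels of 67.3 in hetero-KO and 66.2 in WT at 18 months, against 53.1 and 50.8 at 4 months, and rose by 0.36 ± 0.035 log2 (SE, adjusted p = 0.039). Rplp1 had 73.9 and 73.4 at 18 months, against 57.0 and 59.0 at 4 months, and rose by 0.34 ± 0.036 log2 (limma, adjusted p = 0.043). Rplp0, the base of the stalk, had 24.0 and 24.2 at 18 months, against 20.6 and 20.6 at 4 months, which did not pass (0.23 ± 0.037 log2, limma, adjusted p = 0.058). For each of the 3, both 18-month arrays were above both 4-month arrays, and the genotypes lay close together at each age.

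Rpl5 and Rpl11 form with 5S ribosomal RNA a particle that enters the large subunit and, when free, binds the p53 regulator Mdm2. Rpl11 had levels of 60.7 in hetero-KO and 59.4 in WT at 18 months, against 47.2 and 46.9 at 4 months, and rose by 0.35 ± 0.034 log2 (limma, adjusted p = 0.039). Rpl5 had 14.5 and 15.6 at 18 months, against 13.5 and 14.03 at 4 months, and did not pass (0.13 ± 0.040 log2, limma, adjusted p = 0.15). Whether the age differences of this pair differ was not tested. Rpl10, which is among the last proteins to join the large subunit, had 66.9 and 67.7 at 18 months, against 54.4 and 53.8 at 4 months, and rose by 0.31 ± 0.034 log2 (limma, adjusted p = 0.044). Rpl3, which lies near the peptidyl transferase centre, had 47.3 and 48.9 at 18 months, against 38.2 and 40.5 at 4 months, and rose by 0.29 ± 0.035 log2 (limma, adjusted p = 0.047). The others that rose were Rpl31, Rpl35, Rpl36, Rpl36a, Rpl37a, Rpl37rt and Rpl39, by 0.27 to 0.32 log2. Rpl32 had 39.8 in hetero-KO and 41.6 in WT at 18 months, against 32.8 and 30.4 at 4 months, the largest difference in WT among members measured on all 4 arrays (0.45 log2), and missed the threshold (limma, adjusted p = 0.052). Rpl7 had 25.7 and 27.7 in hetero-KO and WT at 18 months, against 24.9 and 26.9 at 4 months, a difference of 0.04 log2 in both genotypes.

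**Figure D1:**
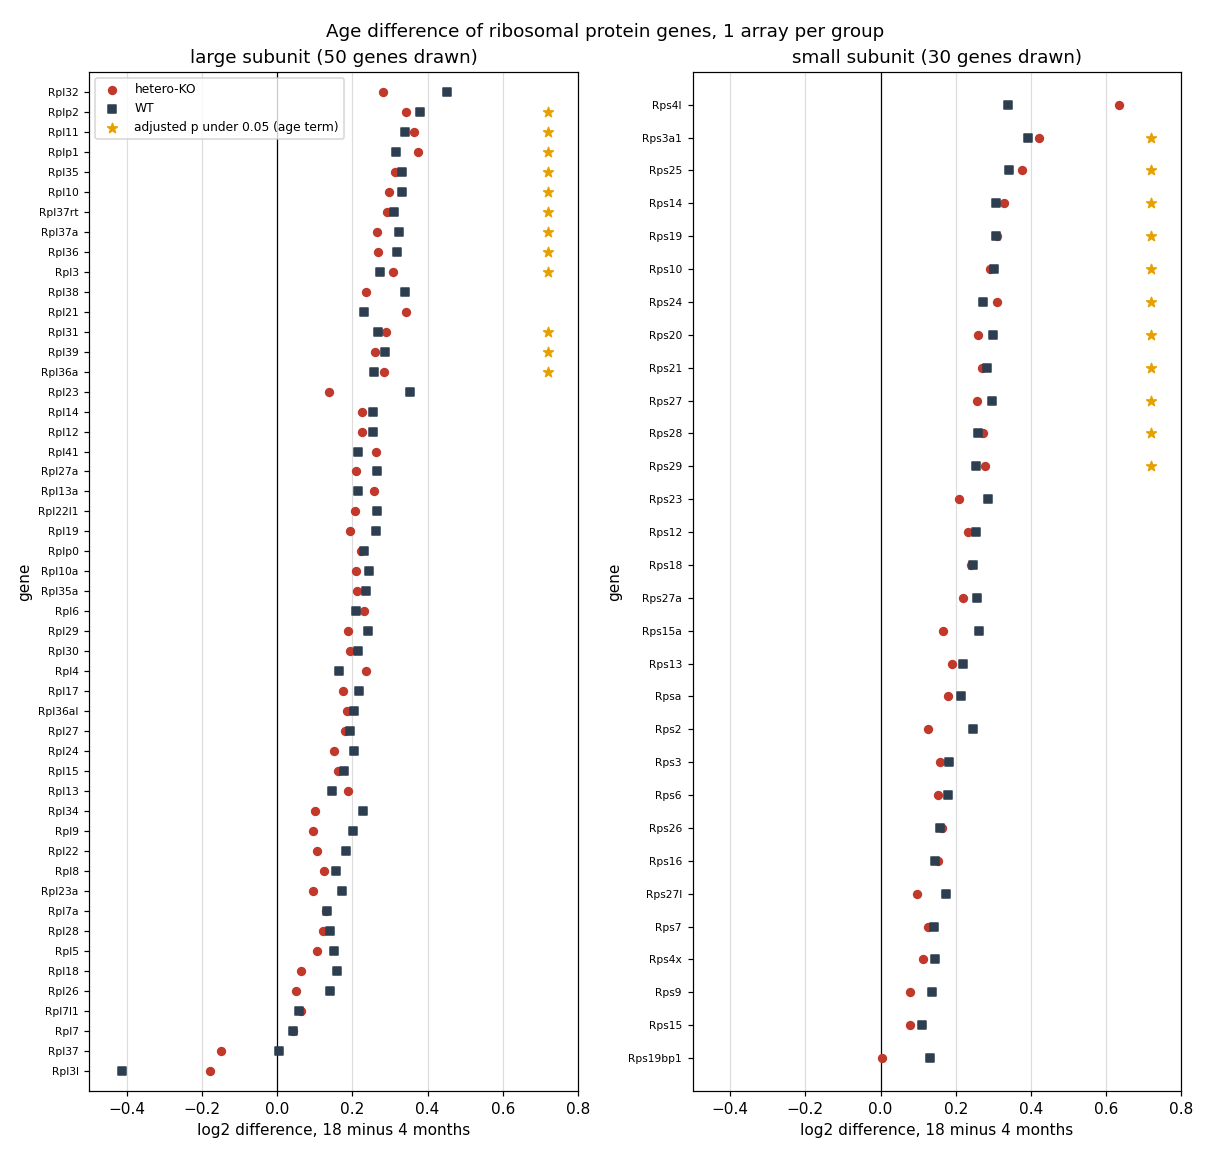
Log2 difference of 18 minus 4 months (x axis) for 80 of the 85 ribosomal protein genes measured on all 4 arrays (rows), large subunit on the left and small subunit on the right, after scaling to the 75th percentile. Red circles are hetero-KO, dark squares WT, 1 array per group, and stars mark the 23 genes drawn that passed the limma threshold. Nearly all points lie right of 0, with medians over all 85 of 0.21 log2 in hetero-KO and 0.24 in WT, which were 0.0066 and 0.067 after quantile normalization and −0.055 and −0.064 in the authors' deposited table.

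Of the small subunit, 14 of 34 genes tested rose, by 0.27 to 0.41 log2 (limma, adjusted p from 0.034 to 0.048). The probe used has 10 spots per array in 4 of the 14 and a single spot in the rest, Rps3a1 and Rps25 included. The median was 0.23 log2 in hetero-KO and 0.26 in WT, and after quantile normalization 0.0077 and 0.066. In the authors' deposited table it was −0.074 and −0.091 log2, and Rps14, Rps19 and Rps25 had the opposite sign. Rps3a1, a protein of the platform side of the subunit, had the lowest adjusted p of the set. Its level was 44.7 in hetero-KO and 42.3 in WT at 18 months, against 33.3 and 32.2 at 4 months, a rise of 0.41 ± 0.035 log2 (limma, adjusted p = 0.034). Rps25 had 44.6 and 43.8 at 18 months, against 34.4 and 34.5 at 4 months, and rose by 0.36 ± 0.036 log2 (limma, adjusted p = 0.041). Rps19, the gene most often mutated in the human anaemia Diamond-Blackfan, had 51.8 and 52.3 at 18 months, against 41.8 and 42.3 at 4 months, and rose by 0.31 ± 0.034 log2 (limma, adjusted p = 0.044). Rps14 had 54.1 and 55.4 at 18 months, against 43.1 and 44.8 at 4 months, and rose by 0.32 ± 0.034 log2 (limma, adjusted p = 0.044). Among the others that rose were Rps10, Rps20, Rps21, Rps24, Rps27, Rps28 and Rps29. Rps6, the substrate of the S6 kinases, had 30.9 and 31.9 at 18 months, against 27.8 and 28.2 at 4 months, and did not pass (0.17 ± 0.036 log2, limma, adjusted p = 0.087). Rpsa, which also serves as a laminin receptor precursor, had 32.3 and 35.0 at 18 months, against 28.5 and 30.2 at 4 months, and did not pass (adjusted p = 0.068). Rps27a, made as a fusion with ubiquitin, had 56.1 and 57.9, against 48.1 and 48.5, and did not pass (adjusted p = 0.052). The X-linked members Rpl10, Rpl36a, Rpl39 and Rps4x differed with age by 0.11 to 0.30 log2 in hetero-KO and 0.15 to 0.33 log2 in WT.

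For 32 members the probe used stands in 10 spots on each array, which gives the error of a spot but not of a mouse. The SD between spots of the 65 member probes with 10 spots had a median of 0.033 log2 and ran from 0.012 to 0.10. In 31 of the 32, all but Rpl9, the 18-month mean was above the 4-month mean by more than both spot SDs together in both genotypes, on the scale of the 75th percentile. Rps14 had log2 levels of 5.76 ± 0.027 in hetero-KO and 5.79 ± 0.023 in WT at 18 months, against 5.43 ± 0.024 and 5.49 ± 0.035 at 4 months (SD over 10 spots). Rps9 had 4.64 ± 0.035 and 4.75 ± 0.031 at 18 months, against 4.56 ± 0.042 and 4.61 ± 0.055 at 4 months and passed this comparison in hetero-KO by a narrow margin. The scanner software gives a larger error for a single spot, 0.14 log2, which makes 0.20 for a difference of 2 spots. The count of 31 of 32 is not given for other genes or after quantile normalization. Of other genes at a level from 16 to 32, 94.8% were higher at 18 months in hetero-KO and 92.3% in WT.

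**Figure D2:**
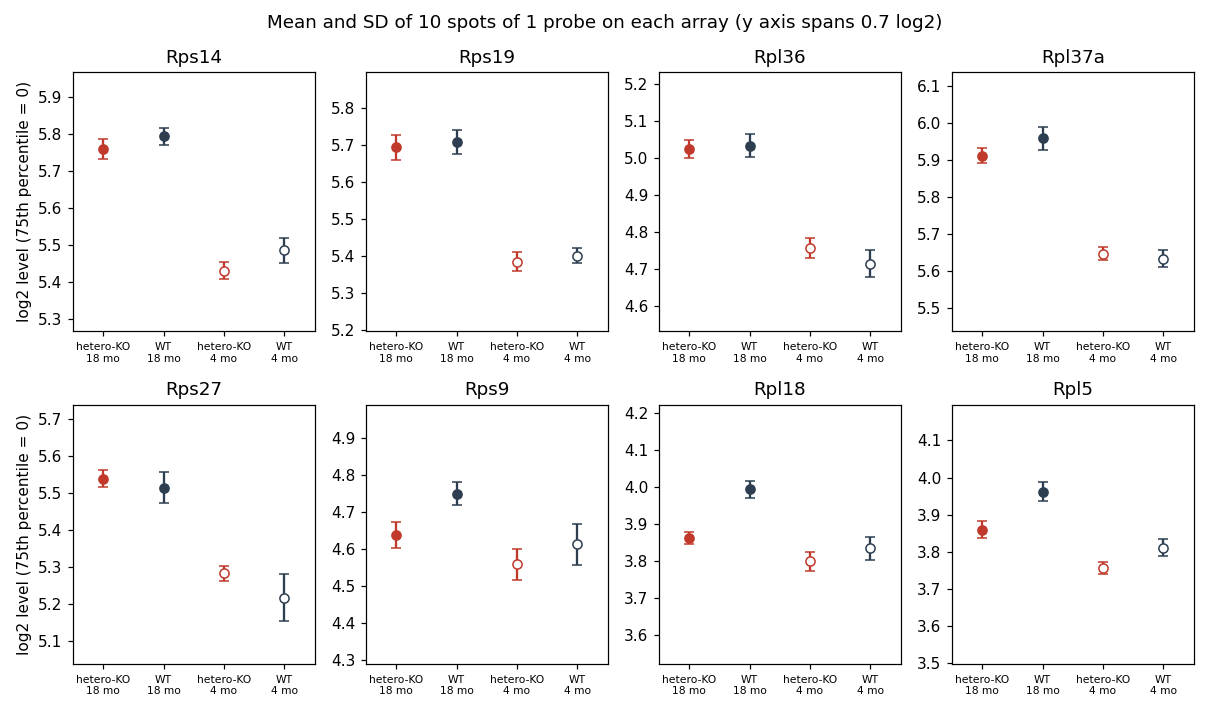
Log2 level (y axis, 0 is the 75th percentile of the array) of 8 ribosomal protein genes on the 4 arrays, as mean and SD of the 10 spots of a probe. Red is hetero-KO and dark is WT, filled at 18 months and open at 4 months. The 5 genes from Rps14 to Rps27 passed the age test and Rps9, Rpl18 and Rpl5 did not, and all 8 were chosen for display after their values were seen.

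The size of the age difference went with the brightness of the gene, in members and in other genes. Of the members, 37 had a mean level from 32 to 64, with a median of 0.26 log2 in hetero-KO and 0.27 in WT, and the 352 other genes of that band had 0.22 and 0.19. In the band from 16 to 32, 35 members had 0.18 and 0.21 log2 in hetero-KO and WT, and 801 other genes had 0.15 and 0.16. Above 64, 3 members had 0.29 and 0.31 log2, and 101 other genes had 0.34 and 0.24. The share of genes called higher with age was 51.4% of members and 19.9% of other genes in the band from 32 to 64, and 14.3% and 6.74% in the band from 16 to 32. After quantile normalization, the members from 32 to 64 had medians of 0.0032 log2 in hetero-KO and 0.068 in WT, and the other genes of the band −0.011 and −0.0051. Over all genes measured, the median age difference was 0.04 log2 in hetero-KO and 0.04 in WT.

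**Figure D3:**
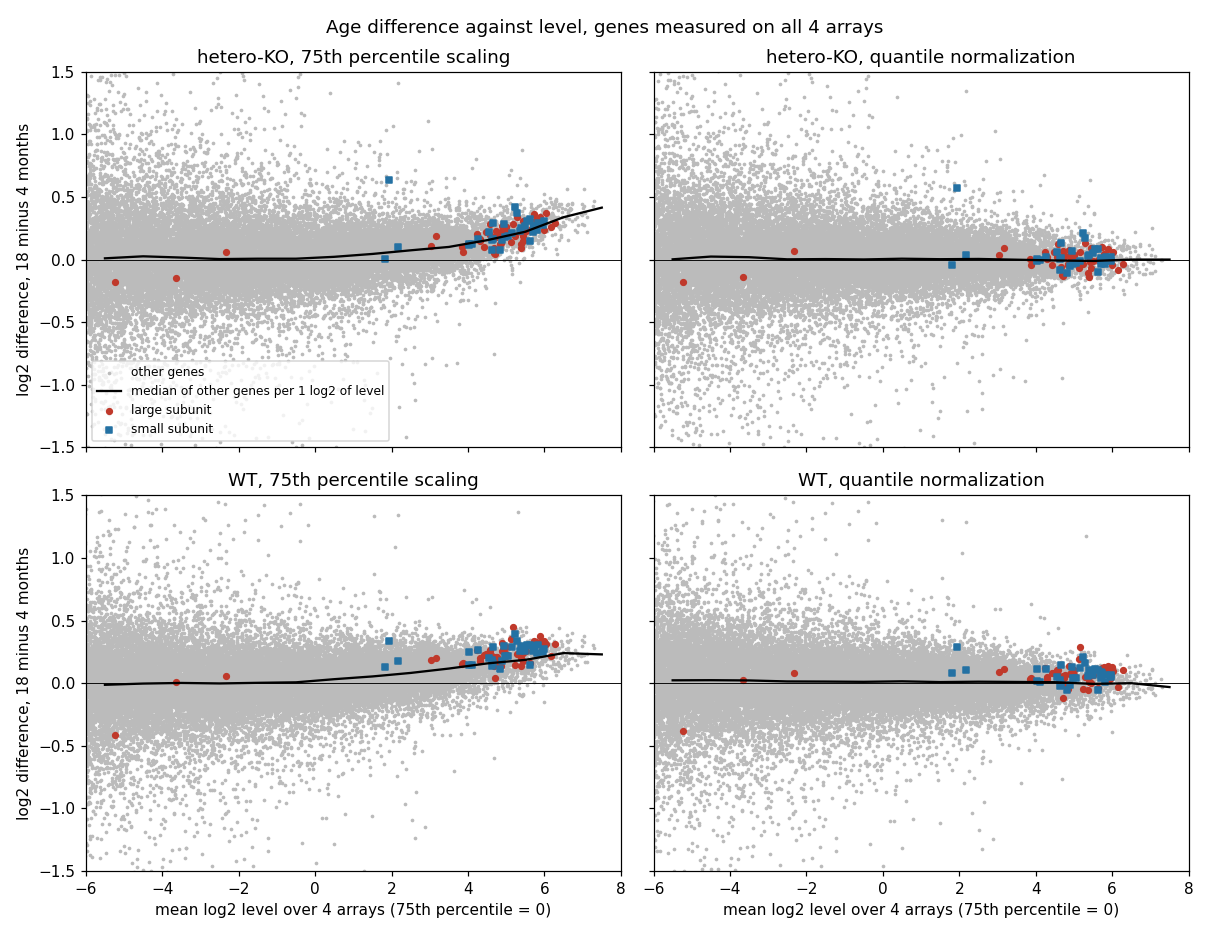
Log2 difference of 18 minus 4 months (y axis) against mean log2 level (x axis) for genes measured on all 4 arrays, hetero-KO above and WT below, scaled to the 75th percentile on the left and quantile normalized on the right. Grey points are other genes with their median as a black line, red circles the large and blue squares the small subunit. On the left both members and line climb at high level, and on the right the members have medians of 0.0066 log2 in hetero-KO and 0.067 in WT.

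The same went for probes of 1 gene. Of 61 members with more than 1 probe measured on all arrays, the brightest probe had the larger age difference than the dimmest in 52, with medians over the genes of 0.23 and 0.093 log2. With the probes of a level of 8 or more alone, this held for 38 of 53 genes, with medians of 0.23 and 0.16 log2. Of the 26 called members, 21 had a second probe measured on all arrays, and it was higher at 18 months in both genotypes in 20, with a median of 0.18 log2 in hetero-KO and 0.25 in WT, against 0.29 and 0.30 for the probe used. The exception was Rpl11, whose second probe, placed elsewhere on chromosome 4, was dim at a mean level of 0.012. Some second probes nearly coincide with the probe used, as for Rpl35, Rpl37a and Rps20, so they are no separate measure. On the probe used, 83 of 85 members were higher at 18 months in both genotypes, against 43.4% of all genes. The probes of Rps3a1, the member with the lowest adjusted p, all had a level above 16 and still differed, and they are given here for that reason, with the base that differs between the overlapping pair in capitals.
A_55_P2911102: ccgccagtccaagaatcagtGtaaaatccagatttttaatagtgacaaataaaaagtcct
A_55_P2121846: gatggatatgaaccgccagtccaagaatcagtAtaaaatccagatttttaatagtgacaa
A_55_P2722600: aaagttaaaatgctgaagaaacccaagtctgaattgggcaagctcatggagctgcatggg
A_55_P2136385: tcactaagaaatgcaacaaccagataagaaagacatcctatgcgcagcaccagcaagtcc

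The probes lie on the minus strand of mm9 at chr3:85941875-85941934, chr3:85941887-85941946, chr3:85942007-85942438 (a span that the 60 bases of the probe do not fill) and chr3:85943041-85943100. The first pair overlaps by 48 bases with 1 mismatch, G21A, counted from the 5′ end of A_55_P2911102. The age difference was 0.42 log2 in hetero-KO and 0.39 in WT for A_55_P2911102, 0.24 and 0.30 for A_55_P2121846, 0.090 and 0.14 for A_55_P2722600, and 0.00096 and 0.053 for A_55_P2136385, which alone of the 4 has 10 spots. Their mean levels were 37.7, 32.7, 18.6 and 16.7 in the same order. The rise of Rps3a1 rests on the brightest probe: with the probe of most spots its age difference was 0.027 log2 and did not pass (limma, adjusted p = 0.73), an alternative chosen after seeing the data.

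**Figure D4:**
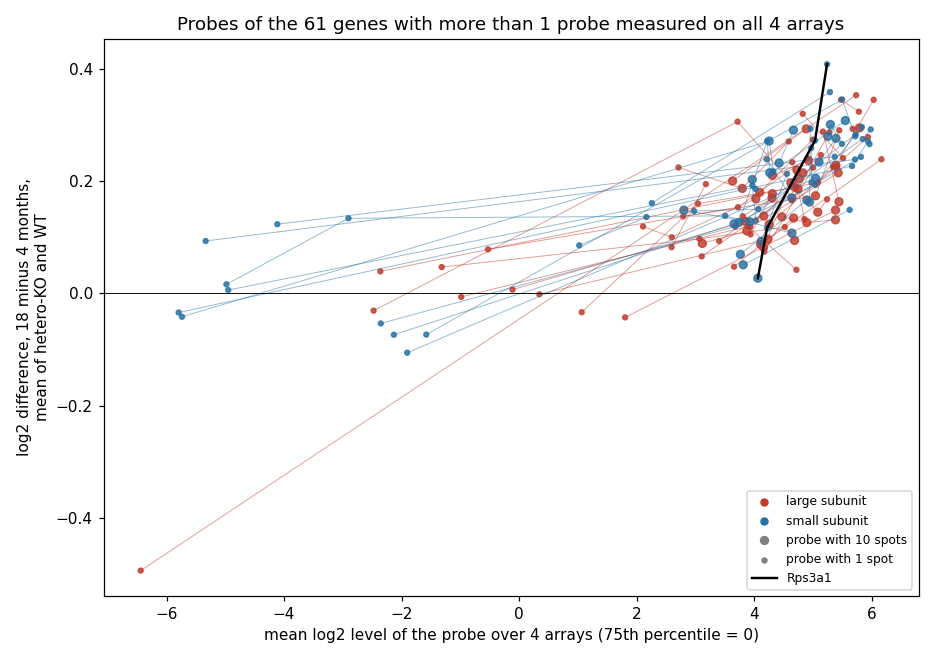
Age difference of each probe (y axis, log2 of 18 minus 4 months, mean of hetero-KO and WT, 75th percentile scaling) against the probe's mean log2 level (x axis) for the 61 members with more than 1 measured probe. Lines join the probes of a gene, large points are probes with 10 spots, red is the large and blue the small subunit. The brightest probe lies above the dimmest in 52 genes, and the black line of Rps3a1 runs from 0.027 to 0.41 log2.

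Paralogs and copies gave the members farthest from the rest. Rps4l, a paralog of the X-linked Rps4x, had levels of 5.05 in hetero-KO and 4.06 in WT at 18 months, against 3.25 and 3.21 at 4 months. This was the largest age difference in hetero-KO among members measured on all 4 arrays, 0.63 log2, with 0.34 in WT, but the gene did not pass (0.49 ± 0.082 log2, limma, adjusted p = 0.060) and differed by −0.36 log2 in the authors' deposited table. Rps4x itself had 16.7 and 17.4 at 18 months, against 15.4 and 15.8 at 4 months. Their probes, shown because the names are close, share no more than 6 bases in a row.
Rps4l: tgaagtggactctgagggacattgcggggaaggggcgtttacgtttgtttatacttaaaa
Rps4x: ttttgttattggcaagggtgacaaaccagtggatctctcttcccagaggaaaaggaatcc

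The Rps4l probe lies at chr6:148304018-148304077 on the plus strand and the Rps4x probe at chrX:99380282-99380312 on the minus strand (mm9, the latter span shorter than the probe). Rpl37rt is a retrotransposed copy of Rpl37. The Rpl37 probe was dim, with 0.0832 in hetero-KO and 0.0725 in WT at 18 months, against 0.0922 and 0.0722 at 4 months. The Rpl37rt probe had 85.4 and 88.0 at 18 months, against 69.7 and 71.0 at 4 months, and rose by 0.30 ± 0.033 log2 (limma, adjusted p = 0.044). Its file entry also lists the Rpl37 transcript, so the signals of the gene and its copy are not separated.
Rpl37rt: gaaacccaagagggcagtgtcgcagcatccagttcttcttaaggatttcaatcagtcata
Rpl37: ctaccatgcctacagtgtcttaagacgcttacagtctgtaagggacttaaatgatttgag

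These probes lie at chr5:115552931-115552973 on the minus strand and chr15:5068935-5068994 on the plus strand of mm9. Of the other paralogs, Rpl22l1 had 20.3 and 20.6 at 18 months, against 17.6 and 17.1 at 4 months, and Rpl22, which represses that paralog, had 8.47 and 8.81 against 7.87 and 7.76, and neither passed. Rpl36al had 9.83 and 9.50 against 8.64 and 8.25, and Rps27l, a p53 target, had 4.54 and 4.86 against 4.25 and 4.31. Rpl7l1 was near 0.2 on all arrays, between 0.193 and 0.204. Rpl3l, a paralog of muscle, was dim, with 0.0262 and 0.0221 at 18 months, against 0.0297 and 0.0295 at 4 months. Rpl39l and Rpl10l are paralogs known from male germ cells. Rpl39l was well above background at 4 months alone (0.00948 in hetero-KO and 0.0155 in WT), at least 1.14-fold lower at 18 months in hetero-KO and at least 2.04-fold lower in WT, and did not pass (limma, adjusted p = 0.19). Rpl10l was not well above background on any array. Copies limit other members too: 6 main probes share 40 or more bases in a row with a probe of another name. For 66 members the chromosome of the main probe could be compared with that of the RefSeq promoter. They differed for 1, Rps27, with the probe on chromosome 9 and the promoter on chromosome 3. This check does not cover members without a promoter entry or a placement elsewhere on the same chromosome.

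Since the members differed with age in 1 direction on the scanner files, the start sites of their genes were read from the RefSeq promoter table (GRCm38.p6), which held 57 of the 77 standard members. The windows hold 20 bases before and 30 from the start site on, which is base 21. The letters CTTTCC, a pyrimidine string chosen after other motifs were tried, stood in the sense strand of this window in 11 of 57 members (19.3%) and in 2.83% of 27025 genes. Counting both strands, the shares were 19.3% and 5.46%. The shorter CTTTC, which CTTTCC contains, stood in the sense strand of 36.8% of members and 7.66% of all genes. A run of at least 6 pyrimidines within 3 bases of the start site was found in 26 of 57 members (45.6%) and 19.3% of all genes, and on the opposite strand in 10.53% and 21.2%. Of members, 16 of 34 of the large and 10 of 23 of the small subunit held the run. These windows show members that rose with CTTTCC (in capitals) and members that rose without it, and Rpl28, which has it and did not pass.
Rpl35: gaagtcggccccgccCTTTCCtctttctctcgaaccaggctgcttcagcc
Rps10: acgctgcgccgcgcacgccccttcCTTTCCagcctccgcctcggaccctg
Rps27: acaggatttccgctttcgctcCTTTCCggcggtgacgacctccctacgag
Rpl28: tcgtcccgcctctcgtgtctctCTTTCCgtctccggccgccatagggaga
Rps3a1: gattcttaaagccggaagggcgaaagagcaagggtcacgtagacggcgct
Rps25: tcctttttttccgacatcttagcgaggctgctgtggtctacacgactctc

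In the same order the windows lie at chr2:39005102-39005151 (minus strand), chr17:27635215-27635264 (minus), chr3:90213619-90213668 (minus), chr7:4792945-4792994 (plus), chr3:86142639-86142688 (minus) and chr9:44407694-44407743 (plus) of GRCm38.p6. The 11 members with CTTTCC differed with age by a median of 0.24 log2 in hetero-KO and 0.24 in WT, and the 46 without it by 0.19 and 0.24, with 3 of 11 and 13 of 46 called. The 26 with the pyrimidine run had 0.21 and 0.26 log2, and the 31 without it 0.19 and 0.21, with 7 and 9 called. No test was made between members with and without these letters.

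Other genes of the translation machinery were described from lists, beside the background of 1.47% of genes called higher and 0.65% lower. Of the ribosomal proteins that carry other names, Fau, a fusion with a ubiquitin-like protein, had levels of 78.6 in hetero-KO and 80.2 in WT at 18 months, against 66.1 and 65.0 at 4 months, and rose by 0.28 ± 0.035 log2 (limma, adjusted p = 0.048). Rack1, a scaffold on the small subunit, had 38.2 and 39.0 at 18 months, against 35.0 and 33.2 at 4 months, and missed the threshold (limma, adjusted p = 0.10). Of 35 initiation factors 1 rose, Eif4a1, an RNA helicase, with 24.5 and 22.1 at 18 months, against 18.3 and 16.9 at 4 months (0.41 ± 0.038 log2, limma, adjusted p = 0.038), and the list's medians were 0.13 log2 in hetero-KO and 0.10 in WT. Eif2s3x, an X-linked subunit of eIF2, had 0.991 and 1.03 at 18 months, against 0.135 in hetero-KO and 0.643 in WT at 4 months, and did not pass. The Y-linked gene Eif2s3y was also lower at 4 than at 18 months. It had 1.33 in hetero-KO and 1.30 in WT at 18 months, the opposite order of the genotypes. At 4 months Eif2s3y was at background in hetero-KO (0.00168) and had 0.673 in WT. The part of sex or of shared signal in the Eif2s3x values was not tested. Of 21 elongation factors and other TOP messenger RNAs, which include Fau, 2 rose, Fau and Tpt1 (72.0 and 72.5, against 61.4 and 60.03), and the medians were 0.16 and 0.18 log2. Of 22 regulators of TOP translation and mTORC1 none passed, with medians of 0.08 and 0.07 log2. Of 74 ribosome biogenesis factors 1 rose, Nhp2, a core protein of pseudouridylation particles, with 10.4 and 9.11 against 8.4995 and 7.36, and the medians were 0.06 and 0.05 log2. The list of the 5S particle and the p53 axis, 13 genes tested, had medians of 0.08 and −0.02 log2 and its 1 call was Rpl11 itself. Of 21 genes of RNA polymerase I none passed, with medians of 0.08 and 0.08 log2. The 78 proteins of the mitochondrial ribosome had medians of 0.06 and 0.12 log2, and none passed. After quantile normalization, every one of these medians lay between −0.08 and 0.06 log2 in hetero-KO and WT.

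The genotype comparison asked whether hetero-KO and WT differ at each age. None of the 86 members tested passed over both ages (limma, lowest adjusted p = 0.40), where 0.0103% of all genes, 3, were called higher and 0% lower, and none passed under any alternative tried. With p under 0.05 before adjustment, 3 members were lower in hetero-KO and none higher, against 6.31% and 5.16% of all genes. They included Rpl7 (−0.11 ± 0.036 log2) and Rpsa (−0.10 ± 0.036 log2), with limma adjusted p of 0.40 and 0.42. The 2 probes of Rpsa are nearly as bright, with mean levels of 31.4 and 31.3. The second had a mean genotype difference of 0.021 log2, the opposite sign. For Rpl7, the second probe had −0.051 log2, and the third, dim at a mean level of 0.50, had 0.069. At 18 months the members had a median of −0.037 log2, with 24 higher and 61 lower of 85, where 52.2% of all genes were lower. The counts at 18 months were 39 higher and 46 lower under scaling to the median gene, 12 and 72 after quantile normalization, and 46 and 39 in the authors' deposited table. At 4 months the median was −0.0035 log2, with 36 higher and 49 lower, where 55.7% of all genes were lower, and 71 were higher under scaling to the median gene. Under scaling to the median gene, the median at 4 months turned to 0.037 log2 and that at 18 months was −0.0027, and in the authors' deposited table the median at 18 months turned to 0.0060. Other genes with a level from 32 to 64 had a median of 0.043 log2 at 18 months and 0.0021 at 4 months, and the 37 members of that band had −0.031 and −0.00089.

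By subunit, the large one had medians of −0.039 log2 at 18 months and −0.00033 at 4 months, and the small one −0.033 and −0.018. After quantile normalization the 18-month medians were −0.075 and −0.064, and under scaling to the median gene they were −0.0048 for the large and 0.0011 for the small subunit. The gene was lower in hetero-KO at both ages for 44 of 85 members and higher at both for 19, against 34.9% and 27% of all genes. Past 1.2-fold, 1 member was higher at 18 months, Rps4l, and 1 at 4 months, Rpl37, against 8.1% and 6.28% of all genes, and none was lower, against 11% and 12.3%. No member differed 2-fold at either age, where 1.06% and 1.09% of all genes did. Of the 32 members with 10 spots per probe, 9 were lower in hetero-KO at 18 months by more than both spot SDs together. None was higher by as much, and 2 were apart by as much at 4 months. Rpl8 was among the 9 by a narrow margin, at −0.070 log2 with spot SDs of 0.034 in hetero-KO and 0.033 in WT. These counts are not given for other genes or under other scalings. Scaling to the median gene moved the median of all members at 18 months from −0.037 to −0.0027 log2. Rpl18 had log2 levels of 3.86 ± 0.017 in hetero-KO and 3.99 ± 0.023 in WT at 18 months, and of 3.80 ± 0.026 in hetero-KO and 3.83 ± 0.032 in WT at 4 months (SD over 10 spots). On the probe used, Rps2 had a level of 16.4 in hetero-KO and 18.3 in WT at 18 months, and 15.03 and 15.4 at 4 months. At 18 months this was the lowest difference of the set, −0.15 log2. Its second probe, in 10 spots at a mean level of 15.6, had −0.082 log2 at 18 months and −0.038 at 4 months. The probe used is placed at chr17:42864841-42864900 of mm9 and the second at chr17:24857583-24857642. Rpl21 was higher in hetero-KO at 18 months on the probe used, with 45.1 against 40.7 in WT, and had 35.6 against 34.6 at 4 months. The second Rpl21 probe, at a mean level of 24.9, had the opposite sign at both ages, with −0.051 log2 at 18 months and −0.027 at 4 months. The probe used for Rpl21 is among the main probes that share bases with a probe of another name. On the probe used, Rpl14 was higher at both ages, with 50.4 in hetero-KO and 48.6 in WT at 18 months and 43.1 and 40.7 at 4 months. Its second probe, at a mean level of 28.3, had −0.041 log2 at 18 months and 0.020 at 4 months. On the probes used, the differences of Rps2, Rpl21 and Rpl14 come from 1 spot each. They are smaller than the scanner software's error of 0.20 log2 for a difference of 2 spots. Markers of choroid plexus also differed with genotype, with a summed level of 162 in hetero-KO and 208 in WT at 18 months and of 143 in hetero-KO and 173 in WT at 4 months, 12 of 12 lower in hetero-KO at both ages and none at 0. Striatum markers were higher in hetero-KO at 4 months in 10 of 10. At 18 months microglia markers were higher in hetero-KO in 12 of 12, neuron markers in 12 of 12 and red blood cell markers in 6 of 6. At 4 months endothelial markers were lower in hetero-KO in 10 of 10 and red blood cell markers in 6 of 6. The part of these markers in the genotype values was not tested.

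**Figure D5:**
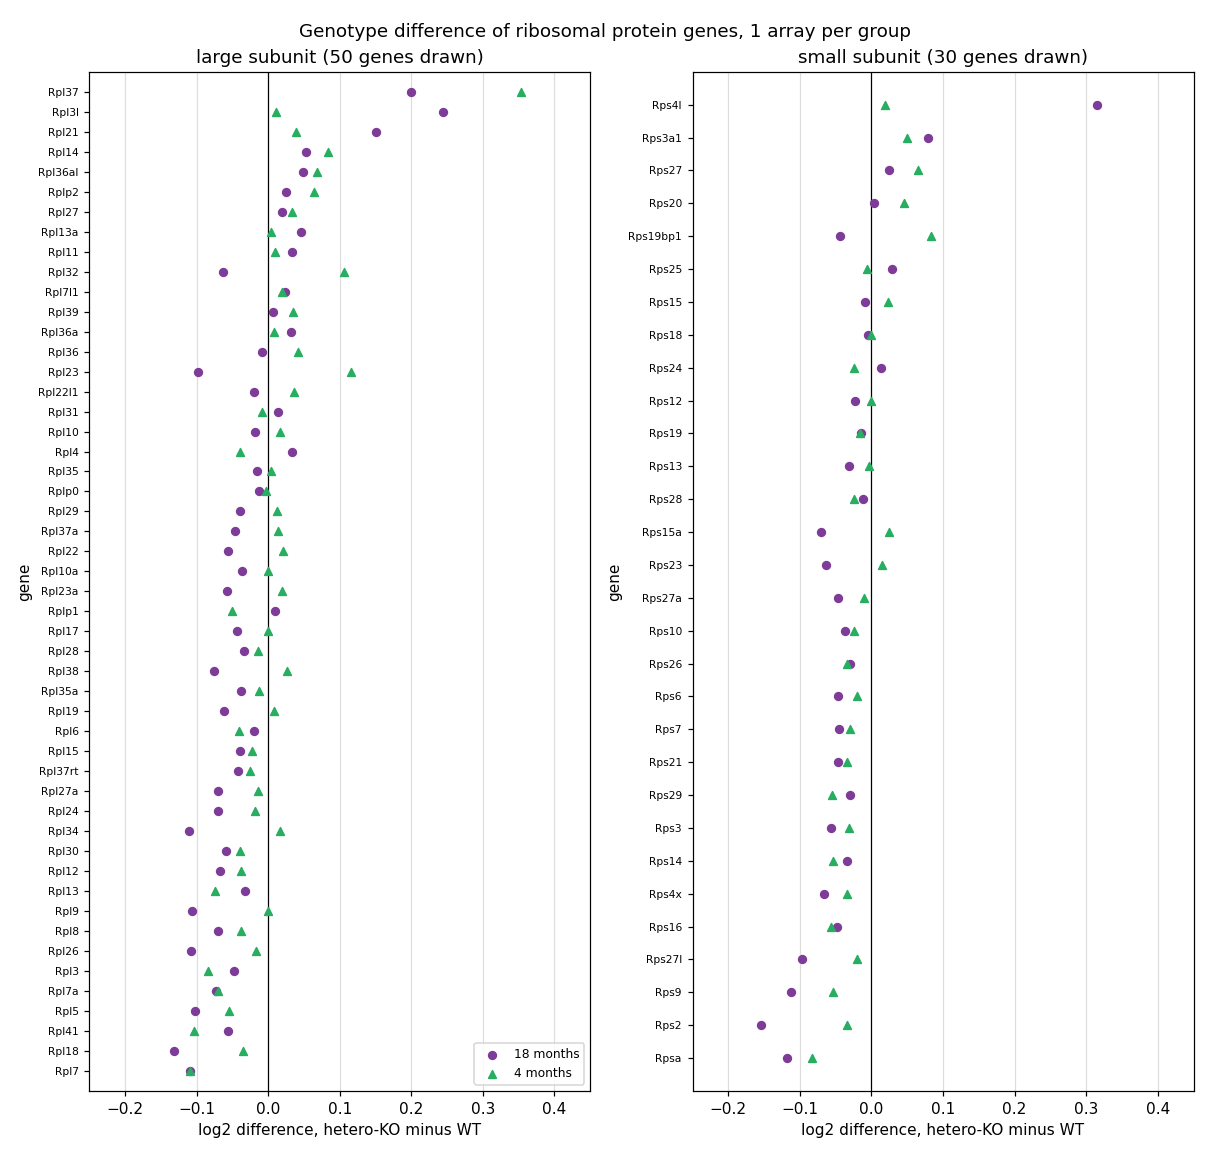
Log2 difference of hetero-KO minus WT (x axis) for 80 of the 85 ribosomal protein genes measured on all 4 arrays (rows), large subunit on the left and small subunit on the right, after scaling to the 75th percentile. Purple circles are 18 months and green triangles 4 months, 1 array per group. The medians over all 85 lie near 0, with values of −0.037 log2 at 18 months and −0.0035 at 4 months, which were 0.037 at 4 months under scaling to the median gene and 0.0060 at 18 months in the authors' deposited table.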

How the data were processed

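RNA of 4 groups was measured on 1 one-colour Agilent array each. The deposited scanner files hold spot intensity, made with Agilent Feature Extraction 11.5.1.1, which subtracted background and spatial trends, per the file headers, and coordinates are in mm9. The authors' deposited table holds a linear ratio, with column medians of 0.0987 and 0.0998 in hetero-KO and WT at 18 months, and 0.103 and 0.107 at 4 months; it has no log, and how its 18-month columns were made is unknown. All 4 arrays share a slide. From the intensity, log2 of the processed signal minus each array's 75th percentile was taken, replicate spots were averaged per probe, and probes with 50% or more of spots well above background were taken as measured. A gene was represented by its brightest probe, and 32994 probes were named through RefSeq. Genotype and age were fitted together in limma 3.58.1 (R 4.3.3) with a variance trend, over genes measured on at least 2 arrays, with Benjamini-Hochberg adjustment at 0.05. The fit has 1 residual degree of freedom, was tested on simulated data, and with no replicate arrays its error is the departure from additivity of genotype and age, moderated over genes, not a spread between mice or pools. Members, lists and tests were chosen with earlier results of these data known. Some items are not reported here by name. Members named are those past the threshold, the largest differences, the brightest and dimmest, those of known role, the paralogs and those whose probes differ in sign. Alternatives covered background correction, scaling, choice of probe, filter, table, members counted and model.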

Additional observations from a re-analysis of the deposited data

Results flagged for a closer look

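A pair of members was flagged because the genotype difference had opposite signs at the 2 ages, each by over 0.05 log2. Opposite signs of any size were found in 22 of 85 members, and the share of all genes that meet the rule is not given. The difference between the ages was not tested. Rpl23 had levels of 36.9 in hetero-KO and 39.5 in WT at 18 months, and of 33.5 in hetero-KO and 30.9 in WT at 4 months, so that its genotype difference was −0.098 log2 at 18 months and 0.12 at 4 months, a change of −0.21 log2. Its second probe had −0.063 log2 at 18 months and −0.073 at 4 months. Rpl32 had 39.8 in hetero-KO and 41.6 in WT at 18 months, and 32.8 in hetero-KO and 30.4 in WT at 4 months, so that its genotype difference was −0.064 log2 at 18 months and 0.11 at 4 months, a change of −0.17 log2. It has 1 probe. Each arm is 1 array, and the probe used has 1 spot for either gene. Their genotype differences at each age are smaller than the scanner software's error of 0.20 log2 for a difference of 2 spots.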

How the results depend on the processing

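The genotype result kept its call, with no member past the threshold and a lowest adjusted p of 0.25 to 0.99 (limma), under all alternatives run. Its medians ran from −0.082 to 0.0060 log2 at 18 months and from −0.039 to 0.037 at 4 months. The age result did not. Against 26 members called higher, normexp background correction gave 47, leaving genotype out of the model gave 4, and quantile normalization, the mean of a gene's probes, no filter, no variance trend and cyclic loess gave 0 each (lowest adjusted p 0.082, 0.066, 0.15, 0.32 and 0.10, with 16, 70, 78, 48 and 27 members at an unadjusted p under 0.05). The authors' deposited table gave 25 calls, 2 higher and 23 lower. The other alternatives gave 18 to 35 calls. The age median over both genotypes was 0.040 log2 after quantile normalization, 0.065 after cyclic loess and −0.055 in the authors' deposited table. In hetero-KO these were 0.0066, 0.043 and −0.055, and in WT 0.067, 0.078 and −0.064. Cyclic loess and the probe with the most spots were chosen after seeing the data.

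Rpl11 turned to −0.070 with the mean of its probes. In the authors' deposited table, 66 of 85 members were lower at 18 months in hetero-KO and 67 in WT, and among the members followed singly 28 turned with age: Rps27l (−0.42), Rps4l (−0.36), Rplp0 (−0.26), Rps9 (−0.24), Rpl7 (−0.19), Rpl18 (−0.18), Rps15a (−0.15), Rpl22 (−0.14), Rps2 (−0.14), Rpl13 (−0.13), Rps13 (−0.12), Rps6 (−0.12), Rps15 (−0.11), Rpl3 (−0.11), Rps27a (−0.10), Rps14 (−0.087), Rps10 (−0.081), Rps20 (−0.075), Rpl10 (−0.066), Rplp1 (−0.057), Rps29 (−0.057), Rpl37rt (−0.055), Rpl37a (−0.052), Rpl11 (−0.040), Rpl36 (−0.035), Rps19 (−0.023), Rplp2 (−0.020) and Rps25 (−0.018). The cause was not tested.

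Leaving out an array was not possible as a test, since 3 arrays leave the model no residual degrees of freedom. No paired analysis was possible because each group has 1 array and the labels give no replicate numbers. With 4 pooled arrays, the number of arrays limits the precision, and signal near background limits Rpl10l, Rpl39l and Rpl3l.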

Other observations

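Of the names left out for holding "-ps", Rpl17-ps8 had levels of 13.9 in hetero-KO and 13.2 in WT at 18 months, against 12.2 and 11.53 at 4 months. Rpl34-ps1 had 7.59 and 7.23 against 6.31 and 6.07. The brighter of the probes of Rpl31-ps12 had 28.0 and 29.2 against 25.9 and 25.3. Rps15a-ps6 was dim, with 0.147 and 0.168 against 0.162 and 0.174. The 3 bright probes of Rps29 are placed on chromosome 2 of mm9 and differed with age by 0.23 to 0.28 log2 in hetero-KO and 0.22 to 0.28 in WT, while the dim one placed on chromosome 12 had −0.13 and 0.061.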
